A study of Mus musculus with 2 samples.

Results

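Fth1, Ftl1, Tfrc, Slc11a1, Slc40a1, Hmox1, Mt1 and Mt2 are 8 genes that store, move and release iron, break down heme or bind zinc and copper. They were taken by gene symbol from the 47730 features counted in each library, by a rule that uses no measured value, though earlier results of these data were known when the genes were picked. Tumours grown in C57BL6\J mice had been dissociated, and live CD45+ cells were taken by a flow cytometer. Mice of both groups lacked ovaries after surgery, and they received placebo or E2, the abbreviation in common use for estradiol. There was 1 library for placebo and 1 for E2, so every difference is one between 2 libraries, with no replicate check, no test and no p-value. The sources used here give neither the tumour type, nor how much E2 was given and for how long, nor how many mice a library pools.

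Cells hold iron in ferritin, a shell built of heavy chains (Fth1) and light chains (Ftl1), take it up through the transferrin receptor (Tfrc), draw it out of phagosomes through NRAMP1 (Slc11a1) and send it out through ferroportin (Slc40a1), the known iron exporter of animal cells. Heme oxygenase 1 (Hmox1) opens the heme ring and frees its iron, and macrophages that clear aged red cells are known for the whole route from heme to export. Metallothioneins (Mt1 and Mt2) are small cysteine-rich proteins that bind zinc and copper, and their genes are switched on by metals, glucocorticoids and stress.

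The placebo library held 3505 barcodes and 24545595 unique molecular identifiers (UMIs, each standing for 1 captured RNA molecule), and the E2 library 5791 barcodes and 52628133 UMIs. After removal of shallow barcodes and likely doublets, 3392 placebo and 5497 E2 barcodes remained, with medians of 5089 and 7885 UMIs. Of the raw barcodes, 95 occurred in both libraries, with medians of 747 placebo and 583 E2 UMIs. Of these, 33 placebo and 30 E2 barcodes entered a gate, and leaving them out changed the count of members past the fold in none of the 3 main classes below. Cells were sorted into classes by fixed marker genes, none of which is among the 8 genes, and the suffix -like in a name means that markers alone gave it. Ptprc, the gene of CD45, had a UMI in 92.8% of placebo and 94.7% of E2 monocyte/macrophage-like cells and in 97.9% of T-like cells of either library. It had a UMI in 0 of 22 placebo and 5 of 88 E2 fibroblast-like cells, which passed the sort all the same.

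The messages of 4 of the 8 genes carry the stem-loop through which iron regulatory proteins are known to act: bound in front of the coding sequence it holds back translation, and bound behind it it protects the message from decay. A search of GENCODE M21 transcripts for a 6-base CAGTGN loop closed by a 5-base-pair stem, an unpaired C and a lower stem found it in 30 of 21842 genes with a protein-coding transcript, 0.137%. The sequences are shown because they split the genes into those with 1 copy in the 5′ UTR (Fth1, Ftl1 and Slc40a1) and the 1 gene with copies in the 3′ UTR (Tfrc, with 4). The loop is in capitals, positions are on GRCm38, the assembly that mm10 names, and a match is a description of the letters, not a tested site.
Fth1 element, chr19:9982733-9982759, plus strand: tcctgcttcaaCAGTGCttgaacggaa
Ftl1 element, chr7:45459780-45459806, minus strand: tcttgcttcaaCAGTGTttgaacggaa
Slc40a1 element, chr1:45925466-45925492, minus strand: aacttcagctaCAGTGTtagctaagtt
Tfrc element 1, chr16:32631220-32631246, plus strand: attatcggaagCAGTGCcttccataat
Tfrc element 2, chr16:32631599-32631625, plus strand: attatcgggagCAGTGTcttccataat
Tfrc element 3, chr16:32631664-32631690, plus strand: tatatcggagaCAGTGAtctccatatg
Tfrc element 4, chr16:32631711-32631737, plus strand: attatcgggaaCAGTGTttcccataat

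Mt1 (chr8:94179082-94180327, 3 exons) and Mt2 (chr8:94172664-94173568, 3 exons) lie on the plus strand with 5513 bases between them, and an antisense gene model, Gm45774, overlaps Mt2 on the other strand. The 250 bases before the RefSeq start of each, on GRCm38.p6, are shown because the genes are neighbours whose levels are compared below. The gene positions above are from GENCODE and differ slightly. The Mt2 window ends short of the GENCODE start of Mt2, and the Mt1 window runs just past the GENCODE start of Mt1. Capitals mark TGCACNC or TGCGCNC on either strand, the core of the element through which the metal-sensing factor MTF1 is known to act. The Mt2 window held 3 matches, a number reached by 1.26% of 32851 promoters of the same length. The Mt1 window held 1, close to its downstream end, which 21.4% of promoters reach. Bases downstream of these windows were not searched. The counts therefore describe the printed bases only, and they do not rank the genes by their number of such elements.
Mt2 promoter, chr8:94172368-94172617, plus strand: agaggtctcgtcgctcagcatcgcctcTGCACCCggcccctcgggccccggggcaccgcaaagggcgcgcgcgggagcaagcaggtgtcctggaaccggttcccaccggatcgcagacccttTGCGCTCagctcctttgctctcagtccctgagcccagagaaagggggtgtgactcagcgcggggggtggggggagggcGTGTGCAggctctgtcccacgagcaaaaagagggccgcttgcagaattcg
Mt1 promoter, chr8:94178839-94179088, plus strand: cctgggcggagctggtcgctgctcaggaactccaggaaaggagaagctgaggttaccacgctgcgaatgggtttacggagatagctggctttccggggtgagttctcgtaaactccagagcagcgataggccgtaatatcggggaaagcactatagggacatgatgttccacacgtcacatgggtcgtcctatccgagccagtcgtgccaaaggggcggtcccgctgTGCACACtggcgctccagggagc

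For each class the UMIs of its cells were summed in each library and scaled to a total of 1000000 (CPM). A 3′ library counts messages without dividing by their length, so levels are compared between cell types and libraries and not between genes. A gene is counted past the fold where log2((CPM E2 + 10)/(CPM placebo + 10)) corresponds to at least 1.5-fold and it had at least 20 UMIs over both libraries. The 95% interval of a CPM ratio, E2 over placebo, is exact and covers counting error only.

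In monocyte/macrophage-like cells (958 placebo and 2322 E2 cells) 0 of 8 genes were past the fold, where 2.14% of 13134 measured genes were. The gene closest to it was Mt1, higher in the E2 library, with a log2 ratio of 0.53; it passed the limit, at 0.60 and 0.64, when libraries were scaled to their median gene and when each cell had equal weight. In neutrophil-like cells (252 and 539 cells) 4 of 7 measured genes were past the fold, where 22.1% of 5812 genes were: Hmox1, Slc11a1 and Ftl1 were lower in the E2 library and Mt1 was higher. In T-like cells (1079 and 893 cells) 0 of 7 measured genes were past the fold, against 1.23% of 11595. The median log2 ratio of the measured genes was 0.10 in monocyte/macrophage-like cells, -0.57 in neutrophil-like cells and 0.01 in T-like cells, and that of all measured genes was -0.03, -0.05 and -0.07. Of these classes, the neutrophil-like gate had the largest share of all genes past the fold, and the cause of this was not tested.

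Ferritin set the neutrophil-like cells apart in both libraries. Fth1 (chr19:9980598-9985098, plus strand, 4 exons), the heavy chain that oxidises iron for storage, was at 23929 CPM in placebo and 22868 CPM in E2 neutrophil-like cells. Monocyte/macrophage-like cells held 7047 and 7359 CPM, so neutrophil-like cells were 3.40-fold (3.33 to 3.46) and 3.11-fold (3.07 to 3.14) above them. Plasmacytoid dendritic-like cells (pDC-like, 28 and 89 cells), known as producers of type I interferon, came between with 8198 and 10579 CPM. NK-like cells were lowest at 1147 and 1341 CPM. Below the first 3 classes, most neighbours in this order overlapped between the libraries.

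Ftl1 (chr7:45457944-45459884, minus strand, 4 exons), the light chain that helps form the iron core, was ordered differently. Basophil-like cells held 6448 and 6142 CPM, neutrophil-like cells 6948 and 4476, and monocyte/macrophage-like cells 4225 and 5084. The range of neutrophil-like cells overlapped with that of each of the others, and T-like cells lay far below them at 660 and 717 CPM. Together Fth1 and Ftl1 made up 3.09% of all UMIs in placebo and 2.73% in E2 neutrophil-like cells, 1.13% and 1.24% in monocyte/macrophage-like cells and 0.29% in T-like cells of each library. Reads of close copies could be miscounted, but Fth-ps2 had 31 and 52 UMIs and Ftl2-ps and Fthl17a to Fthl17f had 0. Ftl1 overlaps the gene models Gm22133 and Gm10252.

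Between the libraries, Fth1 hardly differed in the 3 large classes, with ratios of 1.04 (1.03 to 1.05) in monocyte/macrophage-like, 0.956 (0.938 to 0.974) in neutrophil-like and 0.982 (0.957 to 1.01) in T-like cells, and each of these directions turned under at least 1 alternative setting. Ftl1 was higher in E2 monocyte/macrophage-like cells, 1.20 (1.19 to 1.22), and lower in E2 neutrophil-like cells, 0.644 (0.62 to 0.669). In neutrophil-like cells the light chain was past the fold and the heavy chain was not. The Ftl1 call there, at a log2 ratio of -0.63, was lost under 5 alternative settings, down to -0.45 with a stricter gate.

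**Figure D1:**
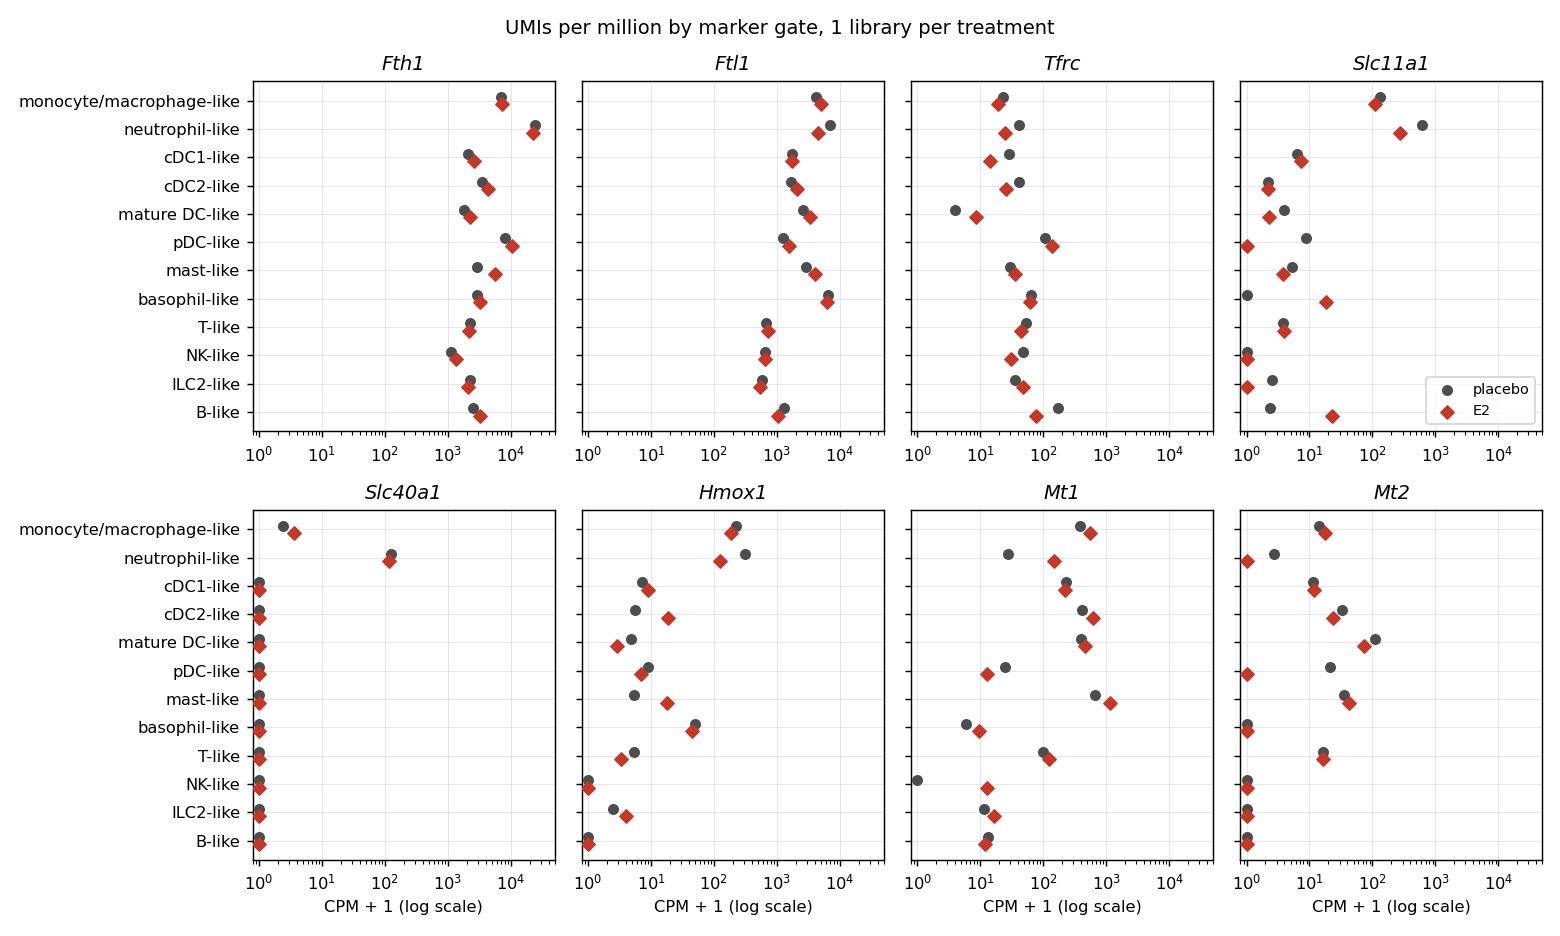
CPM of the 8 genes in the 12 immune cell classes, as CPM + 1 on a logarithmic axis; grey circles are the placebo library and red diamonds the E2 library, and a point at the left edge is a class with 0 UMIs. Slc40a1 stands at 126 and 117 CPM in neutrophil-like cells and at 0 in 10 classes, and Mt1 is highest in mast-like cells, at 659 and 1165 CPM.

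Tfrc (chr16:32608920-32632794, plus strand, 19 exons), the receptor that takes in transferrin-bound iron, followed another order. Its highest levels were in pDC-like cells, 107 and 138 CPM, and B-like cells, 169 and 75.1 CPM, which overlapped. T-like cells held 52.3 and 43.9 CPM, and from them down to mast-like cells, at 28.4 and 34.6 CPM, each class overlapped with the next. Monocyte/macrophage-like cells had 21.9 and 18.0 CPM, and CCR7+ mature dendritic-like cells (mature DC-like) were lowest with 3 and 12 UMIs in all. Monocyte/macrophage-like cells were thus among the highest in ferritin and the lowest in Tfrc, whereas pDC-like cells were high in both Fth1 and Tfrc. The E2 over placebo ratio was 0.822 (0.693 to 0.978) in monocyte/macrophage-like, 0.84 (0.701 to 1.01) in T-like and 0.592 (0.351 to 1.02) in neutrophil-like cells, the last from 24 and 43 UMIs.

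Slc11a1 (chr1:74375195-74386062, plus strand, 15 exons) encodes the phagosomal metal transporter of myeloid cells. It was at 619 CPM in placebo and 269 CPM in E2 neutrophil-like cells and at 132 and 110 CPM in monocyte/macrophage-like cells. No other immune class held more than 34 UMIs of it in a library, and T-like cells had 2.78 and 2.93 CPM. Neutrophil-like cells were the higher of the 2 phagocyte classes in both libraries, by 4.69-fold (4.16 to 5.28) in placebo and 2.45-fold (2.22 to 2.70) in E2. The E2 over placebo ratio was 0.435 (0.379 to 0.5) in neutrophil-like cells and 0.836 (0.780 to 0.895) in monocyte/macrophage-like cells.

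The Slc11a1 difference in neutrophil-like cells was spread over many cells. It had a UMI in 166 of 252 placebo and 236 of 539 E2 cells. With cells thinned to 2000 UMIs, and 76 placebo and 42 E2 shallower cells left out, 66.5% of placebo (59.0 to 73.4%) and 32.8% of E2 neutrophil-like cells (28.7 to 37.1%) kept one. T-like cells, which should lack it, kept one in 0.480% and 0.471% of cells, with 38 and 43 left out. The unthinned shares were 65.9% and 43.8%, and median depths were 2366.5 and 3090 UMIs for neutrophil-like and 4533 and 4257 for T-like cells.

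Slc40a1 (chr1:45908068-45926523, minus strand, 8 exons), the exporter ferroportin, was found mainly in neutrophil-like cells among these sorted CD45+ cells. Neutrophil-like cells held 126 CPM in placebo and 117 CPM in E2, from 75 and 211 UMIs, which were 84.3% and 75.6% of all its UMIs in the kept barcodes of each library. Monocyte/macrophage-like cells held 1.44 and 2.58 CPM, from 13 and 62 UMIs, and the other 10 immune classes held 0. The few fibroblast-like cells that passed the sort held 0 placebo and 3 E2 UMIs, the latter at 3.25 CPM. Neutrophil-like cells were 88.1-fold (48.5 to 173) and 45.5-fold (34.1 to 61.4) above monocyte/macrophage-like cells. The libraries did not differ beyond counting error in neutrophil-like cells, at a ratio of 0.929 (0.711 to 1.23).

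Ferroportin UMIs lay in many neutrophil-like cells, 46 placebo and 140 E2, and no cell held more than 6. After thinning, 13.6% and 19.7% of neutrophil-like cells had a UMI (18.3% and 26% before), against 0.334% and 0.360% of monocyte/macrophage-like cells. Since these shares and the summed levels order the libraries differently, no order is read from them. Of the thinned T-like cells 0 had a UMI, which allows a share of cells with a UMI of up to 0.288% in placebo and 0.353% in E2 and sets no limit on cells that express the gene below this depth. Neutrophil-like cells with an Slc40a1 UMI had summed neutrophil markers near those of cells without, at 103031 against 108592 CPM in placebo and 178833 against 166834 CPM in E2. Their summed macrophage markers were lower, at 3452 against 7553 CPM and 6688 against 7853 CPM.

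Hmox1 (chr8:75093621-75100589, plus strand, 5 exons), which breaks heme into biliverdin, carbon monoxide and iron, was found mainly in the 2 phagocyte classes. Neutrophil-like cells held 307 and 122 CPM and monocyte/macrophage-like cells 224 and 183 CPM. The order of the classes was opposite in the 2 libraries: neutrophil-like cells were 1.37-fold (1.17 to 1.60) above monocyte/macrophage-like cells in placebo and 0.669-fold (0.581 to 0.766) of them in E2. Basophil-like cells followed with 48.5 and 43.4 CPM, every other immune class was under 18 CPM, and B-like and NK-like cells held 0 UMIs. The E2 over placebo ratio was 0.399 (0.326 to 0.488) in neutrophil-like and 0.818 (0.776 to 0.862) in monocyte/macrophage-like cells. Before thinning, 63 of 252 placebo and 116 of 539 E2 neutrophil-like cells had an Hmox1 UMI. The 3 highest cells held 53 of 182 placebo and 37 of 220 E2 UMIs. With each neutrophil-like cell weighted alike, the log2 ratio was -1.375.

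Hmox1 RNA was concentrated in few cells. The tenth of monocyte/macrophage-like cells with most of it held 76.7% of its placebo and 70.0% of its E2 UMIs. Thinned shares in that class were nearly equal, 16.9% of placebo and 17.3% of E2 cells, against 0.672% and 0.471% of T-like cells, with unthinned shares of 44.2% and 48.7% and median depths of 9187 and 9589.5 UMIs. With the same mix of macrophage states in both libraries the log2 ratio turned from -0.28 to 0.08. Summed over 6 erythroid markers the class held 1.32 and 4.95 CPM, with 4 and 2 of them at 0, and their part in the Hmox1 values was not tested. The direction in the whole class therefore depends on the weights given to the states.

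Metallothionein RNA was highest in mast-like cells, tissue cells known for histamine and proteases. Mt1 was at 659 CPM in placebo and 1165 CPM in E2 mast-like cells. Next came cDC2-like cells with 413 and 621 CPM, monocyte/macrophage-like cells with 387 and 561, and mature DC-like cells with 402 and 457, whose ranges overlapped. T-like cells had 96.7 and 122 CPM, and basophil-like, B-like, ILC2-like and NK-like cells were under 16 CPM. Mt2 was highest in mature DC-like cells, the migrating form that carries antigen to lymph nodes, at 108 and 73.7 CPM, then in mast-like cells at 34.9 and 41.9 CPM.

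Mt1 was higher in E2 in most myeloid classes. The ratio was 1.45 (1.40 to 1.51) in monocyte/macrophage-like, 1.5 (1.38 to 1.64) in cDC2-like, 1.77 (1.57 to 2.0) in mast-like and 5.45 (3.29 to 9.67) in neutrophil-like cells. It was 1.26 (1.12 to 1.42) in T-like cells and, spanning 1, 0.963 (0.842 to 1.10) in cDC1-like cells. The thinned share of monocyte/macrophage-like cells with an Mt1 UMI was 28.7% in placebo and 41.9% in E2, and that of T-like cells 7.78% and 12.1%. Before thinning the shares were 51.7% and 64.5%, and 14.0% and 17.6%. Mt2 did not follow everywhere: its ratio was 1.27 (1.03 to 1.57) in monocyte/macrophage-like cells, which turned to lower in E2 when each cell had equal weight, but 0.695 (0.494 to 0.988) in cDC2-like and 0.685 (0.524 to 0.895) in mature DC-like cells.

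**Figure D2:**
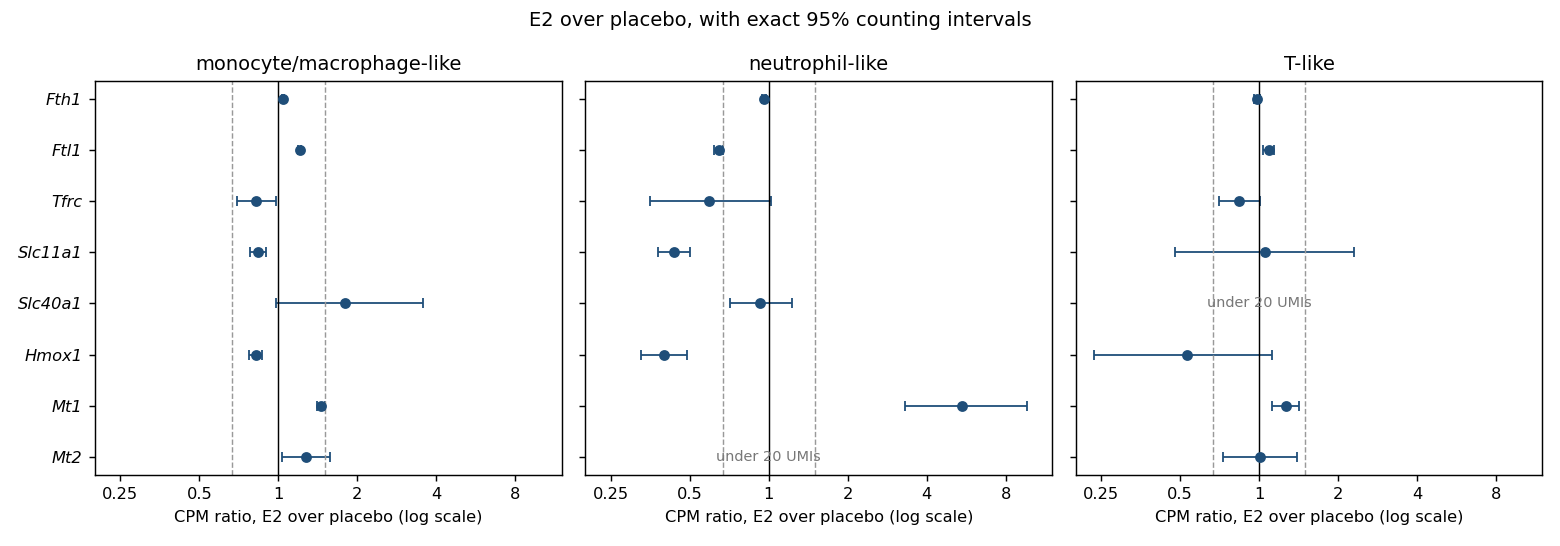
Ratio of CPM, E2 over placebo, for each gene in the 3 largest phagocyte and lymphoid classes, on a logarithmic axis; bars are exact 95% counting intervals, the solid line is no difference and the dashed lines mark 1.5-fold in either direction. In neutrophil-like cells Slc11a1 at 0.435, Hmox1 at 0.399 and Ftl1 at 0.644 lie left of the dashed line and Mt1 at 5.45 right of it, while neutrophil-like Tfrc at 0.592, T-like Hmox1, with 25 and 11 UMIs, and monocyte/macrophage-like Slc40a1 at 1.80 also lie outside the dashed lines as CPM ratios, but not on the scale with 10 CPM added.

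The Mt1 value in neutrophil-like cells rests on few cells: 16 UMIs in 10 placebo cells and 264 UMIs in 48 E2 cells, of which the 3 highest cells held 83. With likely doublets kept, the counts were 39 and 274 UMIs and the ratio 2.34. Cells with an Mt1 UMI and cells without one had similar depths, with medians of 2638 against 2358 UMIs in placebo and 3164 against 3087 in E2. The summed level of 8 macrophage markers, in which Mt1 is abundant, was 6786 CPM in placebo and 7528 CPM in E2 neutrophil-like cells, against 13418 and 16179 CPM in monocyte/macrophage-like cells. Among E2 neutrophil-like cells it was 8551 CPM in those with an Mt1 UMI and 7412 CPM in those without, and in placebo 5810 and 6832 CPM. In the placebo class 2 of the 8 markers were at 0. Their part in the Mt1 difference was not tested.

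The neutrophil-like cells of the 2 libraries also differed in Retnlg. Retnlg, a secreted protein of mature neutrophils, was detected in 124 of the 252 placebo cells and in 363 of the 539 E2 cells. These shares were not thinned, and median depths were 2366.5 and 3090 UMIs. The summed level of the 9 neutrophil gate markers, Retnlg among them, was 107552 and 170178 CPM, with 6 of the 9 higher in E2. In cells with a Retnlg UMI, 2 of 7 measured genes were past the fold, where 26.9% of genes were, and in cells without one 4 of 7 were, where 38.6% were. Slc11a1 was lower in E2 in both, at 626 and 293 CPM with Retnlg and 610 and 200 CPM without. Hmox1 was at 187 and 124 CPM with Retnlg and at 453 and 119 CPM without, so its high placebo level lay mainly in cells lacking Retnlg. Ftl1 showed the same split, at 4647 and 4177 CPM with Retnlg and at 9756 and 5343 CPM without.

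In the placebo library, neutrophil-like cells with Retnlg held 0.413-fold (0.298 to 0.566) of the Hmox1 and 0.476-fold (0.447 to 0.508) of the Ftl1 level of those without it. In E2 these ratios were 1.03 (0.758 to 1.43) and 0.782 (0.745 to 0.820). Mt1 was at 36.8 and 104 CPM with Retnlg and at 15.0 and 271 CPM without, the latter from 4 and 125 UMIs. With the 2 kinds of cell given the same weights in both libraries, set by their UMIs over both, the Ftl1 log2 ratio was -0.45. That is short of the 1.5-fold limit, against -0.63 as captured. What the difference in Retnlg shares contributes beyond that was not tested.

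Other classes gave shorter lists. In mast-like cells (61 and 228 cells) 3 of 6 measured genes were past the fold and all 6 were higher in E2, where 13.9% of genes were past the fold. Fth1 was at 2930 and 5694 CPM there, 1.94-fold higher (1.84 to 2.06), beside Mt1. Hmox1 had 2 and 30 UMIs, a ratio of 3.84 with an interval of 0.974 to 33.2. In cDC2-like cells (116 and 312 cells) 1 of 6 was past the fold, against 3.6% of genes: Hmox1, with 8 and 74 UMIs, at 3.72 (1.79 to 8.94). Tfrc was the 1 gene past the fold in cDC1-like cells, 27.2 and 13.3 CPM, where 6.24% of genes were, and in B-like cells, 169 and 75.1 CPM from 125 and 14 UMIs, where 32.6% were. The number of measured genes past the fold was 0 in NK-like (21.7% of all genes), ILC2-like (19.2%), pDC-like (18.3%), mature DC-like (8.7%) and basophil-like cells (26.9%).

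Within monocyte/macrophage-like cells, 7 states were gated by the markers that name them. The libraries filled the states unequally: Arg1 Mmp12 cells were 12% of the placebo and 3.06% of the E2 class.

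Arg1 Mmp12 cells (115 and 71 cells) were high in Fth1 and highest of the 7 states in Hmox1, in both libraries. Fth1 was at 13621 and 12382 CPM, 2.28-fold (2.24 to 2.32) and 1.73-fold (1.70 to 1.77) above the rest of the class. Hmox1 was at 671 and 479 CPM, 4.44-fold (4.06 to 4.86) and 2.81-fold (2.55 to 3.09) above the rest. Of 7 measured genes 2 were past the fold between the libraries, where 15.1% of genes were: Mt1 at 521 and 800 CPM and Mt2 at 13 and 30 UMIs, both higher in E2.

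Pf4 Ccl8 resident-like cells (53 and 177 cells) held most of the ferroportin of the class. Of its 13 placebo and 62 E2 UMIs, 11 and 45 lay in them, at 29.1 and 26.9 CPM, in 7 and 12 cells. Tfrc was also above the rest of the class, at 52.9 and 32.9 CPM, by 2.58-fold (1.54 to 4.11) and 1.95-fold (1.44 to 2.59). Hmox1 was at 257 and 395 CPM and lay clear of the rest only in E2, by 2.36-fold (2.17 to 2.56). Between the libraries 5 of 8 genes were past the fold, where 17.9% of genes were: Fth1, Hmox1, Mt1 and Mt2 were higher in E2 and Slc11a1 was lower, at 143 and 87.9 CPM. The median depth of this state was 4865 placebo and 9001 E2 UMIs, and its part in these differences was not tested.

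Ace Treml4 cells (90 and 198 cells), which match non-classical monocytes, were high in Slc11a1 and low in metallothioneins. Slc11a1 was at 233 and 256 CPM, 1.89-fold (1.60 to 2.23) and 2.56-fold (2.29 to 2.85) above the rest, the highest of the 7 states in both libraries. Hmox1 was at 411 and 310 CPM, 1.98-fold (1.74 to 2.24) and 1.78-fold (1.61 to 1.96) above the rest. Mt1 was lowest here, at 54.1 and 89.8 CPM, 0.130-fold (0.0925 to 0.178) and 0.151-fold (0.127 to 0.179) of the rest, and Mt2 had 0 and 2 UMIs. Fth1, at 4741 and 7127 CPM, and Mt1 were the 2 of 6 measured genes past the fold, both higher in E2, where 8.55% of genes were.

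Retnla Ear2 Lyz1 cells (88 and 190 cells) had the highest metallothionein levels of the 7 states in both libraries. Mt1 was at 770 and 830 CPM, 2.30-fold (2.13 to 2.49) and 1.58-fold (1.51 to 1.65) above the rest, and Mt2 at 59.8 and 38.8 CPM, 8.99-fold (6.16 to 13.2) and 2.87-fold (2.29 to 3.59) above. The ratio of Mt1 between the libraries was nearest to 1 here, 1.08 (0.996 to 1.17). Slc11a1, at 107 and 59.0 CPM, was the 1 of 7 measured genes past the fold, where 6.84% of genes were.

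Apoe C1q cells (152 and 522 cells) had Fth1 at 5614 and 8862 CPM and Tfrc at 21.4 and 5.91 CPM, from 28 and 31 UMIs, the 2 of 7 past the fold, where 5.46% of genes were. Interferon-high cells (34 and 100 cells) went the other way for Fth1, at 15921 and 8488 CPM, and 3 of 5 measured genes were past the fold, where 25.9% were. Ly6c2 cells (193 and 517 cells), which match classical monocytes, had Mt1 at 229 and 412 CPM, the 1 of 7 past the fold, where 3% were. Cells of no state (233 and 547 cells) had 4 of 7 past the fold, where 5.54% of genes were, all higher in E2: Tfrc, Hmox1, Mt1 and Mt2. Tfrc, at 38 and 194 UMIs there, was lower in E2 in all 7 named states. Only in Apoe C1q cells, at 0.276 (0.160 to 0.477), did the interval of that ratio exclude 1. In the other named states it spanned 1, with as few as 3 and 8 UMIs in interferon-high cells. A group of E2 cells high in Tfrc, described below, shares cells with this set.

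Read across states, Mt1 was higher in E2 in all 7, with ratios from 1.08 in Retnla Ear2 Lyz1 cells to 1.80 (1.62 to 2.0) in Ly6c2 cells. Ftl1 was higher in E2 in 6 of 7, with ratios from 0.972 in Retnla Ear2 Lyz1 cells to 1.45 (1.39 to 1.51) in Ace Treml4 cells. Fth1 ran from 0.533 (0.515 to 0.551) in interferon-high to 1.65 (1.57 to 1.73) in Pf4 Ccl8 cells, on both sides of 1. In the whole class its log2 ratio was 0.06, and 0.20 with the same state mix in both libraries. Hmox1 was lower in E2 in Ace Treml4, Arg1 Mmp12 and Retnla Ear2 Lyz1 cells and higher in the other 4.

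**Figure D3:**
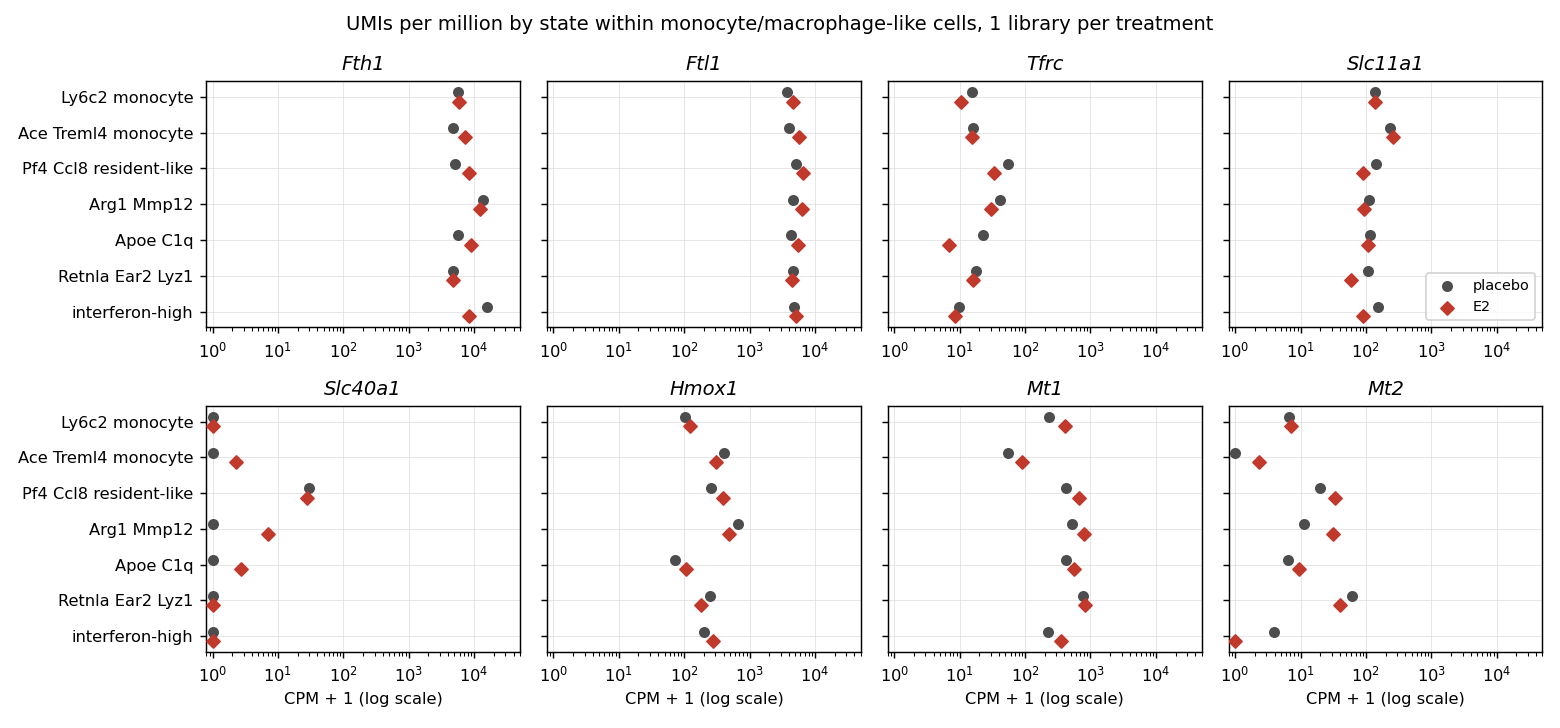
CPM of the 8 genes in the 7 states of monocyte/macrophage-like cells, as CPM + 1 on a logarithmic axis; grey circles are the placebo library and red diamonds the E2 library. Hmox1 is highest in Arg1 Mmp12 cells, at 671 and 479 CPM, Slc40a1 in Pf4 Ccl8 cells, at 29.1 and 26.9 CPM, and Mt1 is lowest in Ace Treml4 cells, at 54.1 and 89.8 CPM.

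A small group of E2 cells held much of the Tfrc in the class. Among E2 monocyte/macrophage-like cells, 25 had at least 1000 CPM of Ctsk, the bone-resorbing protease cathepsin K, and 0 placebo cells did. This limit was chosen after the values were seen. They were deep, with a median of 21801 UMIs, and high in the osteoclast genes Acp5, at 4911 against 52.8 CPM in the other cells, and Mmp9, at 6463 against 2.73 CPM. They made up 2.39% of the UMIs of the class but held 135 of its 432 Tfrc UMIs, at 235 CPM against 12.7 CPM, 18.5-fold higher (15.0 to 22.8).

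The same 25 cells were high in Mt1 and Mt2 and low in Slc11a1 and Hmox1. Mt1 was at 1432 against 539 CPM, 2.65-fold higher (2.47 to 2.85), and Mt2 at 71.3 against 15.2 CPM, 4.68-fold higher (3.30 to 6.48). Mt3, the neighbour of Mt2 known best from brain, had 951 of its 1036 UMIs of the class in them. Of the same 1036 UMIs, 934 lay in cells of no state, so the 2 groups share cells. The part of the Ctsk-high cells in the Tfrc difference of cells of no state was not tested. Slc11a1 was at 12.2 against 113 CPM, 0.108-fold (0.0434 to 0.223), and Hmox1 at 99.1 against 185 CPM. Fth1 was at 7353 against 7359 CPM, with no difference beyond counting error. Without these cells the log2 ratio of Tfrc between the libraries was -0.49, against -0.19 with them, and that of Mt1 was 0.47, against 0.53.

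Among T-like cells the metallothioneins were highest in regulatory T-like cells (404 and 339 cells), the Foxp3+ cells that restrain other T cells. Mt1 was at 150 and 228 CPM in them and at 60.8 and 46.3 CPM in the other T-like cells, 2.47-fold (2.08 to 2.95) and 4.92-fold (4.04 to 6.03) higher. Mt2 was at 24.7 and 28.6 CPM, 2.85-fold (1.80 to 4.59) and 4.98-fold (2.82 to 9.30) higher. T-like cells of no subset (197 and 203 cells) came next, with Mt1 at 116 and 93.1 CPM and Mt2 at 17.8 and 10.4 CPM. Mt1 was between 36.5 and 43.7 CPM in CD4 T-like cells and had 19 and 4 UMIs in CD8 T-like cells. The 28 Mt1 UMIs of placebo gamma-delta T-like cells came from 1 cell, and those of E2 numbered 2.

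Between the libraries, 0 of 6 measured genes were past the fold in regulatory T-like cells, where 4.98% of genes were, with Mt1 just inside at 1.51 (1.31 to 1.75) before 10 CPM were added. The count was 0 of 4 in CD4 T-like cells (9.86% of genes), 1 of 4 in CD8 T-like cells (10.5%) and 2 of 4 in gamma-delta T-like cells (18.9%), all 3 lower in E2. Gamma-delta T-like cells (71 and 104 cells) had the highest Fth1 of the T-like subsets, at 3044 and 2985 CPM. Tfrc, which dividing lymphocytes need for iron, was at 60.7 and 50.7 CPM in regulatory and 42.9 and 39.8 CPM in CD8 T-like cells.

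Cycling cells, called by at least 3 of 7 cell cycle genes, had more Mt1 and less Fth1 among T-like and monocyte/macrophage-like cells. In cycling T-like cells (41 and 52 cells) Mt1 was at 299 and 283 CPM, 4.18-fold (3.49 to 4.99) and 3.26-fold (2.75 to 3.85) above the other T-like cells, while Fth1 was at 0.690-fold (0.646 to 0.736) and 0.789-fold (0.747 to 0.833). In cycling monocyte/macrophage-like cells (16 and 86 cells) Mt1 was 1.53-fold (1.29 to 1.79) and 1.39-fold (1.31 to 1.47) above the rest. The placebo group is small, with 13 Slc11a1 and 15 Hmox1 UMIs. Fth1 was at 0.459-fold (0.429 to 0.490) and 0.623-fold (0.609 to 0.637), Slc11a1 at 0.351-fold (0.186 to 0.603) and 0.328-fold (0.252 to 0.420), and Hmox1 at 0.238-fold (0.133 to 0.393) and 0.496-fold (0.421 to 0.582). In cycling cDC1-like cells of E2 Mt1 was lower than in the other cDC1-like cells, at 0.786-fold (0.683 to 0.902). Tfrc did not differ beyond counting error in cycling T-like or monocyte/macrophage-like cells, with ratios from 1.09 to 1.27 and every interval spanning 1.

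The neighbours Mt1 and Mt2 did not keep a fixed ratio. There were 29.7 (24.7 to 36.0) and 33.9 (30.6 to 37.5) Mt1 UMIs per Mt2 UMI in monocyte/macrophage-like cells, but 6.40 and 7.99 in T-like and 3.73 and 6.20 in mature DC-like cells. In cDC2-like cells the ratio was 12.9 (9.80 to 17.3) in placebo and 27.9 (22.7 to 34.6) in E2. Within the macrophage class, Retnla Ear2 Lyz1 cells were at 12.9 and 21.4 and Pf4 Ccl8 cells at 22.4 and 20.5, with overlapping intervals in both libraries. Apoe C1q cells were higher, at 77.3 and 64.2, as were Ly6c2 cells, at 40.8 and 66.8. The intervals of both lay above those of Retnla Ear2 Lyz1 cells in each library, though from only 7 and 11 placebo Mt2 UMIs. The interval of Arg1 Mmp12 cells, at 51 and 26.2, did so in placebo only.

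The ferritin chains varied as widely. Fth1 UMIs per Ftl1 UMI were 6.70 and 6.78 in pDC-like, 3.37 and 3.05 in T-like, 1.67 and 1.45 in monocyte/macrophage-like, 0.693 and 0.686 in mature DC-like and 0.451 and 0.523 in basophil-like cells. These classes kept their order in both libraries. Neutrophil-like cells had 3.44 in placebo and 5.11 in E2.

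**Figure D4:**
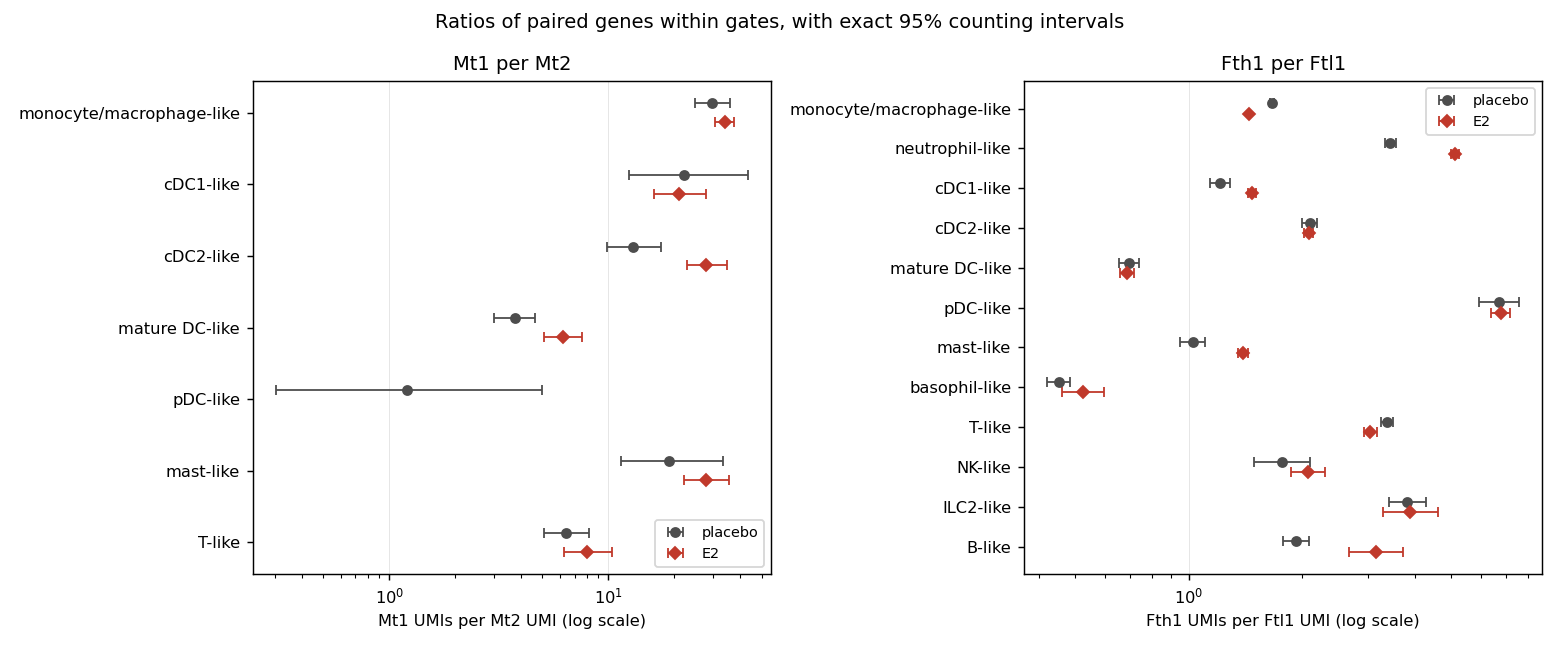
Mt1 UMIs per Mt2 UMI (left, classes with at least 5 Mt2 UMIs shown) and Fth1 UMIs per Ftl1 UMI (right) by cell class, on logarithmic axes; grey circles are placebo, red diamonds E2 and bars exact 95% counting intervals. The Mt1 to Mt2 ratio is 29.7 and 33.9 in monocyte/macrophage-like and 3.73 and 6.20 in mature DC-like cells, and the Fth1 to Ftl1 ratio runs from 0.451 in basophil-like to 6.78 in pDC-like cells.

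Profiles over 10 cell classes in both libraries, 20 points that share libraries and depth, were compared with those of 5885 other genes by Pearson's r on log2(CPM + 10), as a description. Left out, with 28 cells in 1 library, were basophil-like cells and pDC-like cells, the latter high in both Fth1 and Tfrc. The 3 genes most like Fth1 were Oasl2 (0.94), Lamp2 (0.94), a lysosomal membrane protein, and Pfkfb4 (0.93). For Ftl1 they were Sat1 (0.95), Gabarap (0.94) and Atp6v0d1 (0.93), the last 2 parts of autophagy and of the lysosomal proton pump. Slc11a1 was most like C5ar1 (0.97), Hp (0.97) and C5ar2 (0.96), of which C5ar1 is a gate marker. Slc40a1 was most like Fpr1 (0.999), Nlrp12 (0.997) and Stfa2l1 (0.997), where Fpr1 is a receptor for bacterial peptides on neutrophils. These r values rest on the neutrophil-like points, at 126 and 117 CPM of Slc40a1, since no other class held more than 2.58 CPM. They restate that restriction. Hmox1 was most like Fgd4, Sqrdl and Hacd4 (each 0.96), and Tfrc like Rnf20 (0.91), Grk6 (0.88) and Rc3h1 (0.88). For Mt1 they were Nav1, Selm and Tspan31 (0.88, 0.88 and 0.85) and for Mt2 Gatsl2, Rap2b and Sel1l (0.91, 0.89 and 0.88). Among the 8 genes themselves, Slc11a1 and Hmox1 stood at 0.92 and Mt1 and Mt2 at 0.82. Tfrc was near 0 with Slc40a1 (-0.02), Fth1 (-0.05) and Slc11a1 (-0.09), and lowest with Mt2 (-0.64).

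The genes around the 8 split nearly evenly in monocyte/macrophage-like cells. Of 65 measured genes in 8 lists of iron, heme and metal handling, the 8 genes included, 34 were higher and 31 lower in E2, and the median log2 ratio was 0.01, against -0.03 over all genes. In storage 2 of 5 were higher, and the iron chaperones Pcbp1 (274 and 208 CPM) and Pcbp2 (313 and 255 CPM) were lower, with 0 past the fold. In iron import 7 of 10 were higher and 0 past the fold, with the ferrireductase Steap3 at 17.2 and 23.5 CPM. In export 2 of 2 were higher, Slc40a1 and Cp (4.75 and 6.49 CPM), a ferroxidase. In sensing 1 of 4 was higher, Fbxl5 (42.0 and 50.3 CPM), which targets an iron regulatory protein for decay, and Ireb2 was at 29.9 and 24.1 CPM. In heme and iron-sulfur synthesis 7 of 14 were higher, with Ppox at 8.17 and 13.3 CPM and Alas1, the first enzyme of heme synthesis, at 68.6 and 56.3 CPM.

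Of each of 3 further lists 1 gene was past the fold, where 2.14% of all genes were. In heme uptake, transport and breakdown 8 of 10 were higher in E2, and the gene past the fold was Cd163, the receptor for hemoglobin bound to haptoglobin, at 11.4 and 33.3 CPM, 2.92-fold higher (2.38 to 3.63). Blvrb, which reduces biliverdin, was at 90.4 and 133 CPM, 1.47-fold higher (1.36 to 1.59). Of the list of BACH1, NRF2 and SPIC regulators and their targets 8 of 11 were lower and 1 past the fold: Slc7a11, the cystine transporter, at 103 and 41.3 CPM, 0.4-fold (0.366 to 0.438). Bach1, the repressor of Hmox1, was at 175 and 129 CPM. In the metallothionein and zinc list 4 of 9 were higher and 1 past the fold, Mt3, at 6 and 1036 UMIs, most of them in the Ctsk-high cells, and Slc30a1, a zinc exporter driven by MTF1, was at 23.2 and 16 CPM.

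Metallothioneins and Hmox1 are known stress genes, and a list of 12 dissociation stress and immediate-early genes is set beside them. In monocyte/macrophage-like cells 4 of 12 were higher and 8 lower in E2, with 0 past the fold. Hspa1a was at 39.7 and 53.6 CPM, and Junb at 2429 and 1923 CPM. Summed over the list, the level was 7789 and 7042 CPM, lower in the library with more Mt1, and its part in the Mt1 and Hmox1 differences was not tested. In neutrophil-like cells 10 of 12 were lower in E2 and 2 past the fold, a share below the 22.1% of all genes. In T-like cells 8 of 12 were higher and 2 past the fold, where 1.23% of all genes were.

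In neutrophil-like cells the BACH1, NRF2 and SPIC list had 7 of 9 measured genes lower and 2 higher in E2. Past the fold were 4 lower and 1 higher, where 22.1% of all genes were past it in either direction. The median log2 ratio was -0.54 against -0.05 over all genes, in the class where Hmox1 was at 0.399-fold. Slc7a11 was at 2775 and 1531 CPM and Txnrd1, a thioredoxin reductase, at 504 and 218 CPM. Hp, which encodes haptoglobin and belongs to the heme uptake, transport and breakdown list, went the other way, at 718 and 1528 CPM. These 3 genes were chosen for naming after their values were seen. In T-like cells 0 genes of the metal lists were past the fold.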

How the data were processed

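The deposited matrices hold raw UMI counts per gene and cell barcode, made by the authors with Cell Ranger 3.1.0 on mm10, per the submitters' processing notes. Barcodes with under 200 genes were dropped, likely doublets were removed with scrublet (scanpy 1.11.5) at 0.8% per 1000 barcodes (98 placebo and 268 E2), and cells were gated by marker lists. A gate needed a score of at least 0.15, a lead of 0.05 over the next list and 2 detected markers, and a macrophage state a z-score of 0.3 with a lead of 0.1. UMIs were summed per gate and library, scaled to CPM and compared as log2 ratios with 10 CPM added. Ratio intervals are exact conditional binomial and share intervals Clopper-Pearson, at 95%, for counting error only. With 1 library per group no test was run. The scripts were tested on simulated data.

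The 8 genes, the marker lists and the pathway lists were chosen with earlier results of these data known. Genes named in a pathway list were the up to 4 with the largest absolute log2 ratio in monocyte/macrophage-like cells and at least 30 UMIs. Like genes were the 3 with the highest r among those with at least 50 CPM in a class of at least 50 cells. Promoters came from RefSeq (GRCm38.p6), transcripts from GENCODE M21.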

Additional observations from a re-analysis of the deposited data

Results flagged for a closer look

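Hmox1 moved in opposite directions in cDC2-like and neutrophil-like cells. Its log2 ratio, E2 over placebo, was 0.90 in cDC2-like cells, from 8 and 74 UMIs, and -1.26 in neutrophil-like cells, from 182 and 220 UMIs, a difference of 2.16 on the log2 scale. With 1 library per group this difference was not tested.

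Barcodes in no gate, which enter no comparison above, held metallothionein RNA. In these 285 placebo and 310 E2 barcodes, with median depths of 682 and 1420 UMIs, Mt1 was at 235 and 774 CPM, 3.30-fold higher in E2 (2.82 to 3.88). Mt2 was at 23.9 and 45.1 CPM, 1.89-fold higher in E2 (1.12 to 3.35). Of 7 measured genes 4 were past the fold in these barcodes, where 17.5% of genes were, and the other 2 were lower in E2: Hmox1 at 195 and 76.9 CPM and Tfrc at 50.4 and 24.0 CPM. Summed neutrophil markers were at 1526 and 405 CPM and T markers at 498 and 190 CPM, and their part in these values was not tested.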

How the results depend on the processing

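No paired analysis was possible because each group had 1 library. Of 199 values of single genes under alternative settings, 13 changed sign, 5 of them where the counting interval of the main ratio excluded 1 and 8 where it spanned 1. These 8 were Fth1 in T-like cells under 4 settings (0.014 to 0.12), Hmox1 and Mt2 (-0.065) in T-like cells, and Slc40a1 in monocyte/macrophage-like (-0.13) and neutrophil-like cells (0.034). The count of genes past the fold in monocyte/macrophage-like cells, 0, became 1 (Mt1) when scaled to the median gene and 1 (Mt1) with each cell weighted alike. In T-like cells it became 1 (Hmox1) with a pseudocount of 1 CPM, at a log2 ratio of -0.69, and 1 (Hmox1) without doublet removal, at 0.67. In neutrophil-like cells it stayed between 3 and 5. With each cell weighted alike, monocyte/macrophage-like Fth1 turned to -0.026 and Mt2 to -0.19, from 0.06 and 0.21. With the same state mix Hmox1 turned to 0.078. In neutrophil-like cells Fth1 turned from -0.07 to 0.067 when scaled to the median gene and to 0.069 with a stricter gate. The median gene itself lay at -0.08, -0.13 and -0.08 in monocyte/macrophage-like, neutrophil-like and T-like cells. The median of the pathway lists, 0.01, was -0.0090 with the same state mix, -0.026 over genes with at least 100 UMIs and -0.00018 without shared barcodes. The cause of these turns was not tested. The settings without shared barcodes, without Ctsk-high cells and with the same Retnlg mix were chosen after seeing the data. Depth limits most the genes with few UMIs: intervals of Tfrc, Mt2 and Slc40a1 are wide in small classes.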
